A study of Mus musculus with 12 samples.

Results

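Slpi and 9 marker genes of the mesothelium were followed through 12 RNA sequencing libraries of mouse gonadal white adipose tissue. The 9 markers were Msln, Upk3b, Upk1b, Krt8, Krt18, Krt19, Lrrn4, Bnc1 and Nkain4. All 10 were found by symbol among the 28008 genes listed in both deposited count tables. They were chosen by measured values of these same libraries, the difference of Slpi between HFD PCN and HFD Vehicle and the way the markers moved together, so those measurements are given as descriptions. Mice of the inbred strain C57BL/6N had been put on their diets at 6 weeks of age for 18 weeks, and each of the 4 groups had 3 libraries. HFD PCN mice were on a high-fat diet and received PCN (pregnenolone 16alpha-carbonitrile, a synthetic steroid and agonist of the pregnane X receptor of rodents) at 50 mg/kg, intraperitoneally once a day for 4 days. HFD Vehicle mice were on the same diet and received the carrier, 30% DMSO in corn oil, on the same schedule. HFD mice had the diet alone and Chow mice regular chow, and no injection is stated for either. Strain and tissue were shared by all groups.

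The mesothelium is the single sheet of flat cells that lines the body cavities and covers the organs in them, the gonadal fat pad included. Its cells come from mesoderm, yet they carry simple epithelial keratins and surface proteins that are otherwise known from lining epithelia, and they keep the surface smooth and slippery. Slpi encodes secretory leukocyte protease inhibitor, which blocks neutrophil elastase and cathepsin G. It is made by many lining epithelia and also by macrophages and neutrophils, so it is less specific to the mesothelium than the 9 markers. In a piece of fat, fewer mesothelial cells and less RNA per cell cannot be told apart.

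The stretches just upstream of RefSeq transcript starts of 3 of the genes are shown, because genes that move together across libraries can differ widely in promoter type. Windows of 250 bases before the transcript start came from RefSeq (build GRCm38.p6), which matched 6 of the 10 genes (Slpi, Upk3b, Krt8, Krt18, Lrrn4 and Bnc1). For Slpi the RefSeq start lies 32.6 kb inside the gene span given with its levels, so its window precedes that RefSeq transcript and not the far end of the span. Capitals mark the motifs searched on both strands.
Slpi, chr2:164356508-164356757, minus strand: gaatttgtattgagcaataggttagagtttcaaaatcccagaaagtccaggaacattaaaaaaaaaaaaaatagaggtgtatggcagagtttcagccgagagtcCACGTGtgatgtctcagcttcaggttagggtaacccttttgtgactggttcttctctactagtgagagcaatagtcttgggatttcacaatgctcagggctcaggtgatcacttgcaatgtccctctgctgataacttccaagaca
Upk3b, chr5:136038246-136038495, plus strand: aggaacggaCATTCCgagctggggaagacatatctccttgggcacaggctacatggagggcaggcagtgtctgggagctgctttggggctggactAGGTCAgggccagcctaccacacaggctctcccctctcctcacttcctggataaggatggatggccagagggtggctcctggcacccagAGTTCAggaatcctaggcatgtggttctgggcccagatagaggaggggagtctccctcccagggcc
Bnc1, chr7:81992300-81992549, minus strand: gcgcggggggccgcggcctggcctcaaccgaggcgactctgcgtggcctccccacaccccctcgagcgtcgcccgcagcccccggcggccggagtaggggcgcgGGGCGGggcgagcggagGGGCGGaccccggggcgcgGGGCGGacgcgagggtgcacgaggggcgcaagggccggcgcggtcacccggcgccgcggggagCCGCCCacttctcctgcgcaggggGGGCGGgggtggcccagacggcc
The Slpi window was 42.0% G or C with 2 CpG dinucleotides. The Upk3b window was 60.8% with 2 CpG dinucleotides, and the Bnc1 window 83.6% with 39. Over all 32526 RefSeq promoters the medians were 52.4% and 6. The Slpi window held 1 E-box (CACGTG), found in 6.04% of all promoters, at positions -146 to -141 from the start. Bnc1 held 5 GC boxes (GGGCGG or its reverse complement), a motif in 33.0% of all promoters and in none of the other 5 windows. Upk3b held the nuclear receptor half-site AGGTCA, as did Krt8, Krt18 and Lrrn4, so 4 of 6 windows had it, against 14.0% of all promoters. It also held AGTTCA, found in 11.8% of all promoters and in no other of the 6 windows. The M-CAT element CATTCC stood in Upk3b and Lrrn4 and in 12.6% of all promoters. None of the 6 windows held TATAAA (12.3% of all promoters), TGANTCA (6.73%) or CCAAT (33.8%). In the printed windows no motif overlapped another. Annotated exons of any gene covered 248 of the 250 bases of the Bnc1 window and 0 of the Slpi and Upk3b windows. They covered 140 bases of the Krt8 window, 36 of Krt18 and 29 of Lrrn4. A match of letters is a description and not a binding site.

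Depth ranged from 11090117 to 27408092 counts per library. The series title gives the tissue as gonadal white adipose, while duodenum stands in the source label. The adipocyte lipid carrier Fabp4 lay at 2812 to 8074 CPM (the library-scaled count, with TMM factors over the 12 libraries). Epcam and Vil1, which mark intestinal epithelium, had at most 0.298 and 2.83 CPM. HFD Vehicle 50 stood apart from its group. Its summed level of 6 macrophage markers was 747.5 CPM, against 5096 and 5731 CPM in HFD Vehicle 23 and 55. Its 7 adipocyte markers summed to 12350 CPM, against 7442 and 5416 CPM in those libraries, and mitochondrially encoded genes took 7.85% of its counts, against 2.30% to 3.47% in the other libraries on the high-fat diet and 7.30% to 29.6% in Chow. HFD PCN 11 differed from its group in the same direction for both lists. Its adipocyte markers summed to 12350 CPM, against 6076 and 7851 CPM in HFD PCN 5 and 27. Its macrophage markers summed to 2406 CPM, against 5475 and 5350 CPM in those libraries. Results of the 10 genes that rest on HFD Vehicle 50 are given with and without it. The labels do not say that each library came from a separate animal, so p-values measure only the spread between these samples.

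Slpi (ENSMUSG00000017002, chr2:164354070-164389095, minus strand) was spread widely within HFD and within Chow. It lay at 8.93, 7.93 and 11.1 CPM in HFD PCN 5, 11 and 27. In HFD Vehicle 23, 50 and 55 it lay at 1.28, 2.93 and 1.49 CPM. HFD 4, 30 and 38 had 23.7, 8.52 and 1.11 CPM, and Chow 8, 17 and 19 had 3.58, 0.560 and 0 CPM. No count fell on Slpi among the 11702225 of Chow 19, and 3 counts, the limit that a count of 0 allows, are 0.342 CPM on this scale. All HFD PCN libraries were above all HFD Vehicle libraries, while HFD spread 21.4-fold and covered the range of HFD Vehicle, HFD PCN and beyond. The means were 9.32 ± 1.61 CPM in HFD PCN, 1.90 ± 0.894 CPM in HFD Vehicle, 11.1 ± 11.5 CPM in HFD and 1.38 ± 1.93 CPM in Chow (SD, n = 3 each). Floors and the binomial intervals of shares cover counting error only. The intervals of log2 fold changes rest on the edgeR SE, which includes the spread between libraries.

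Msln (ENSMUSG00000063011, chr17:25748614-25754327, minus strand) encodes mesothelin, a lipid-anchored surface glycoprotein that binds the mucin MUC16. It lay at 15.3, 15.01 and 7.17 CPM in HFD PCN 5, 11 and 27, and at 3.61, 14.5 and 3.52 CPM in HFD Vehicle 23, 50 and 55. HFD 4, 30 and 38 had 5.76, 5.15 and 0.409 CPM, and Chow 8, 17 and 19 had 4.10, 4.00 and 0.798 CPM. HFD Vehicle 50 matched the upper HFD PCN libraries, and the other HFD Vehicle libraries lay below all HFD PCN libraries. HFD and Chow overlapped.

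The uroplakins are membrane proteins that build the rigid plaques on the surface of the urinary tract lining, and Upk3b and the tetraspanin Upk1b are also made by mesothelial cells. Upk3b (ENSMUSG00000042985, chr5:136038496-136046487, plus strand) lay at 20.0, 18.9 and 6.66 CPM in HFD PCN 5, 11 and 27, and at 2.17, 13.7 and 0.907 CPM in HFD Vehicle 23, 50 and 55. It lay at 7.13, 5.96 and 0.643 CPM in HFD 4, 30 and 38 and at 5.14, 3.04 and 0.114 CPM in Chow 8, 17 and 19. HFD PCN 27 was below HFD Vehicle 50 and HFD 4, HFD 38 and Chow 19 were far below the rest of their groups, and HFD Vehicle 50 was far above the rest of its group. Upk1b (ENSMUSG00000049436, chr16:38773184-38800328, minus strand) lay at 12.4, 5.92 and 6.10 CPM in HFD PCN and at 1.90, 4.02 and 0.373 CPM in HFD Vehicle, in the same order of libraries. It lay at 1.92, 2.03 and 0.526 CPM in HFD and at 1.64, 0.640 and 0.114 CPM in Chow. For Upk1b every HFD PCN library was above every library of the other groups.

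Keratins 8 and 18 pair into the filaments of simple epithelia, and keratin 19 is a further partner of keratin 8. Krt8 (ENSMUSG00000049382, chr15:101996698-102004482, minus strand) and Krt18 (ENSMUSG00000023043, chr15:102028180-102032027, plus strand) lie 23.7 kb apart on opposite strands. Krt8 lay at 5.44, 3.01 and 3.70 CPM in HFD PCN 5, 11 and 27 and at 0.505, 1.74 and 0.427 CPM in HFD Vehicle 23, 50 and 55. It lay at 0.579, 0.526 and 0 CPM in HFD 4, 30 and 38 and at 1.04, 0.240 and 0.114 CPM in Chow 8, 17 and 19. HFD PCN was above all other libraries for Krt8, and HFD 38 had no count for Krt8 or Krt18, which allows up to 0.175 CPM (3 counts). Krt18 lay at 1.26, 1.48 and 0.840 CPM in HFD PCN, 0.194, 1.46 and 0.160 CPM in HFD Vehicle, 0.543, 0.491 and 0 CPM in HFD and 0.447, 0.880 and 0.114 CPM in Chow. HFD Vehicle 50 and Chow 17 reached into the range of HFD PCN. Krt19 (ENSMUSG00000020911, chr11:100140810-100148665, minus strand) lay at 9.15, 4.12 and 4.54 CPM in HFD PCN, 0.931, 4.02 and 0.107 CPM in HFD Vehicle, 1.16, 1.44 and 0.117 CPM in HFD and 0.895, 0.160 and 0.228 CPM in Chow. Again HFD PCN was above all other libraries, with HFD Vehicle 50 just under it.

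Lrrn4 encodes a leucine-rich repeat membrane protein, Bnc1 the zinc finger protein basonuclin 1 of epithelial and germ cells, and Nkain4 a membrane protein that interacts with the sodium and potassium pump. Lrrn4 (ENSMUSG00000043110, chr2:132868305-132880891, minus strand) lay at 19.3, 10.8 and 8.40 CPM in HFD PCN 5, 11 and 27, at 1.90, 5.58 and 0.427 CPM in HFD Vehicle 23, 50 and 55, at 3.51, 2.73 and 0.467 CPM in HFD 4, 30 and 38 and at 3.06, 2.16 and 1.71 CPM in Chow 8, 17 and 19. Bnc1 (ENSMUSG00000025105, chr7:81966672-81992292, minus strand) lay at 6.34, 2.91 and 4.37 CPM in HFD PCN, 0.466, 4.85 and 0.373 CPM in HFD Vehicle, 0.978, 1.40 and 0.0584 CPM in HFD and 1.42, 0.640 and 0.342 CPM in Chow. Nkain4 (ENSMUSG00000027574, chr2:180934772-180954699, minus strand) lay at 4.29, 3.17 and 2.24 CPM in HFD PCN, 0.388, 2.56 and 0.107 CPM in HFD Vehicle, 0.905, 1.12 and 0.409 CPM in HFD and 0.820, 0.480 and 0.684 CPM in Chow. For Lrrn4 every HFD PCN library was above the rest. For Bnc1 and Nkain4, HFD Vehicle 50 was within the range of HFD PCN and the remaining libraries were below it. Other annotated genes cover 5.2% of the exon bases of Krt8, 4.4% of Nkain4, 2.1% of Bnc1 and 0.1% of Slpi, and the sources used here do not state whether reads were counted by strand.

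**Figure D1:**
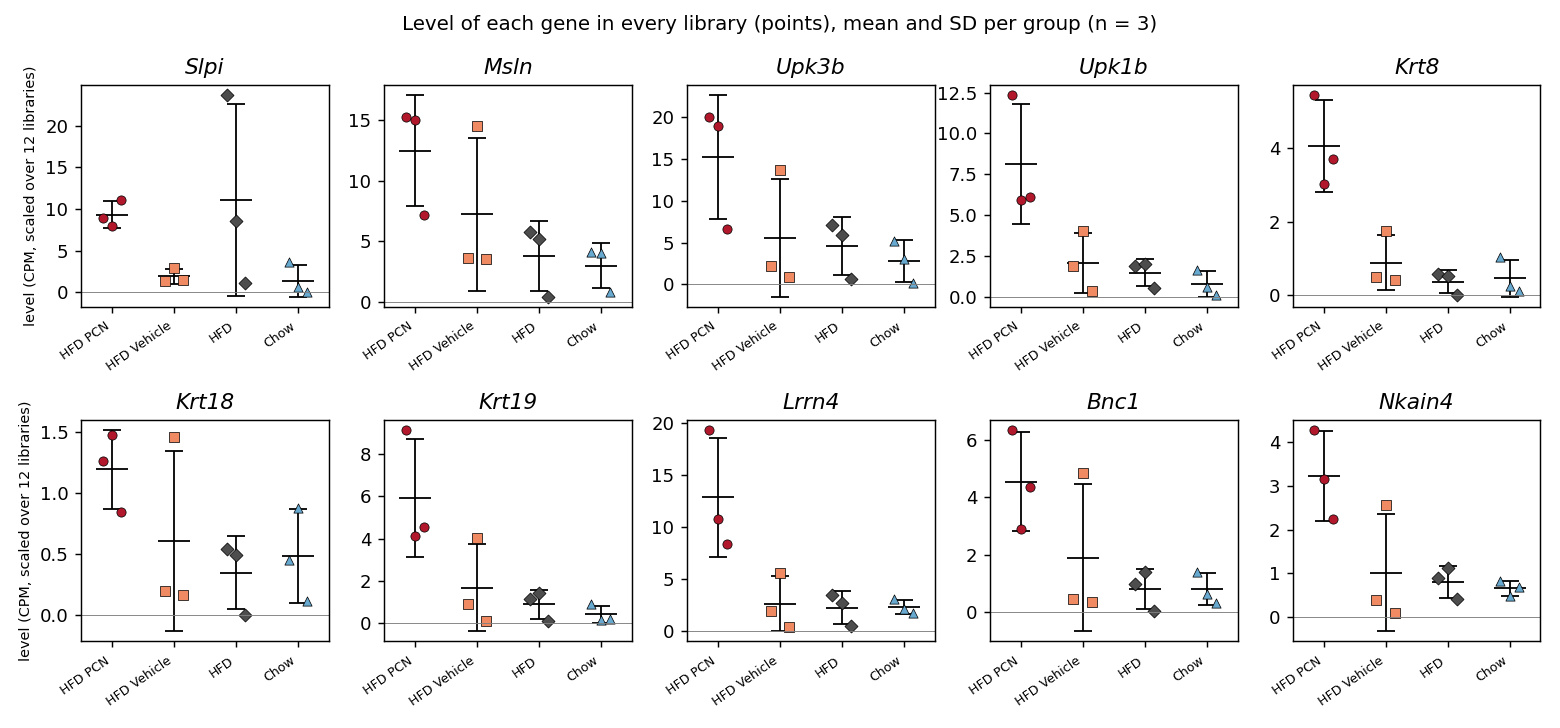
Level of each gene in CPM (vertical axes, linear, a scale per gene) in every library (points) of HFD PCN, HFD Vehicle, HFD and Chow, with the mean and SD per group (n = 3). HFD PCN has the highest mean for 9 of the 10 genes, Slpi has its highest library in HFD 4 (23.7 CPM), and the high HFD Vehicle point in most panels is HFD Vehicle 50.

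The plot of levels shows the same libraries at the ends for most genes. HFD PCN 5 was the highest of the 12 libraries for 8 of the 10 genes, and all 10 were among its 3 highest places. HFD 38 was among the 3 lowest libraries for all 10 genes, and Chow 19 and HFD Vehicle 55 for 8 genes each. The mean was highest in HFD PCN for 9 genes and highest in HFD for Slpi. In HFD Vehicle, HFD and Chow the genes overlapped between all pairs of groups, so the order of those 3 means lies within their spread. Per kilobase of exon, Slpi had the highest mean level of the 10, at 5.02 ± 5.75 RPKM (CPM divided by exon length in kilobases, SD over 12 libraries). Msln followed at 2.16 RPKM, Upk3b at 1.99, Upk1b at 1.498 and Lrrn4 at 1.35 RPKM, and Bnc1 was lowest at 0.433 RPKM. The spread between libraries was as large as these differences in level.

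HFD against Chow was the comparison of diet, and it is not the contrast that chose Slpi. Of the 8 genes that passed the filter on low counts, 0 passed edgeR's quasi-likelihood test at an adjusted p of 0.05 (Benjamini-Hochberg over all genes), while 59.8% of all 16216 genes tested did. At an unadjusted p under 0.05 there was 1, Slpi, beside 64.2% of all genes. Krt8 and Krt18 were too low to be tested. The median log2 fold change of the 8 was 0.48, against -0.03 over all genes, and 7 were above 0, as were 48.6% of all genes. None of the 8 separated HFD from Chow, whereas 68.5% of all genes did. Slpi had the largest difference, a log2 fold change of 2.87 (SE 1.13, adjusted p = 0.0564 by edgeR), with 23.7, 8.52 and 1.11 CPM in HFD and 3.58, 0.560 and 0 CPM in Chow. It did not pass by DESeq2 (3.03, adjusted p = 0.160) or limma-voom (3.62, adjusted p = 0.151), and the authors' deposited table gives 1.59 with an adjusted p of 0.243. Without HFD 4 the log2 fold change was 1.73 (edgeR adjusted p = 0.239). It passed without HFD 38 (log2 fold change 3.41, edgeR adjusted p = 0.0177), without Chow 8 (5.06, edgeR adjusted p = 0.0244), with no filter (2.96, edgeR adjusted p = 4.89e-04) and with all 12 libraries in one fit (2.93, edgeR adjusted p = 0.0407). The other 7 tested genes ran from -0.05 (Lrrn4) to 1.04 (Krt19), with SEs of 0.44 to 0.89. Approximate 95% intervals of the difference (normal approximation) were wide for Krt19, from -0.59 to 2.67, and narrower for Nkain4, from -0.56 to 1.18. Macrophage markers rose with the diet in 6 of 6 cases and adipocyte markers fell in 7 of 7 by the same edgeR test, and their part in these levels was not tested.

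HFD PCN against HFD Vehicle asked what PCN did in obese mice, and its values are described only. All 10 genes had a log2 fold change above 0, as did 50.0% of all 16563 genes, with a median of 1.86 (0.00 over all genes). In linear terms the median was 3.62-fold. Slpi had a log2 fold change of 2.33 (SE 0.38) and the smallest unadjusted p of all genes. Lrrn4 had 2.34 (SE 0.82), Krt8 2.28 (SE 0.59) and Upk1b 2.0 (SE 0.76), and Msln was lowest at 0.82 (SE 0.63). By edgeR, 0 of the 10 and 0.0% of all genes had an adjusted p under 0.05, and 4 of the 10 and 281 of all genes (1.7%) had an unadjusted p under 0.05. DESeq2 called 1 gene, Slpi, and in the authors' deposited table Slpi has a log2 fold change of 1.63 and an adjusted p of 1.02e-04. All HFD PCN libraries were above all HFD Vehicle libraries for 5 of the 10 (Slpi, Upk1b, Krt8, Krt19 and Lrrn4), and for 3.43% of all genes. Nothing is read from these shares, since the list was chosen with this contrast known.

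The differences of the 9 markers were larger without HFD Vehicle 50. Without it the groups separated for all 10 genes and for 11.0% of all genes, the log2 fold changes ran from 1.81 to 3.60 and their median was 3.18. The smallest edgeR adjusted p of the 10 was then 0.356, so 0 were called by edgeR, and 0 by limma-voom. DESeq2 without this library called 9 of the 10, all but Krt18, and 44 genes in all (0.266%). Within the group the 9 markers summed to 12.1, 52.5 and 6.399 CPM in HFD Vehicle 23, 50 and 55, against 93.4, 65.3 and 44.0 CPM in HFD PCN 5, 11 and 27. Slpi was at most 2.93 CPM in any HFD Vehicle library, so its groups stayed apart with that library in. With HFD Vehicle 55 left out instead, the 9 markers had smaller log2 fold changes by edgeR, from 0.46 (Msln) to 1.92 (Krt8). With HFD PCN 11 left out they ran from 0.67 (Msln) to 2.45 (Krt8 and Lrrn4).

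HFD Vehicle against HFD compared obese mice with and without injections, over genes listed in both tables. The HFD Vehicle libraries entered the contrast that chose Slpi, so its value here is not independent of the choice. Of the 10 genes, 0 were called by edgeR, and 0.0% of all 16781 genes, against 1639 genes (9.77%) with an unadjusted p under 0.05. DESeq2 called 91 genes and none of the 10. Slpi had a log2 fold change of -2.58 (SE 1.0, adjusted p = 0.485 by edgeR), with 1.28, 2.93 and 1.49 CPM in HFD Vehicle and 23.7, 8.52 and 1.11 CPM in HFD. The other 9 ran the other way, from 0.16 to 1.09, and 50.4% of all genes were above 0. No gene of the 10 separated the groups, and 28.0% of all genes did. Without HFD Vehicle 50, 8 of those 9 had a log2 fold change below 0, down to -1.66 for Nkain4, and edgeR called 172 genes and none of the 10.

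HFD PCN against HFD was added after the data were seen, and its HFD PCN libraries are those of the contrast that chose Slpi, so it is no independent evidence. No injection is stated for HFD mice, so PCN and the injections cannot be told apart in this comparison. Krt8 was higher in HFD PCN, with a log2 fold change of 3.31 (SE 0.58, adjusted p = 0.0319 by edgeR). Upk1b (2.39, SE 0.47, edgeR adjusted p = 0.0405) and Nkain4 (1.94, SE 0.37, edgeR adjusted p = 0.0382) were higher too. These were 3 of the 10, beside 2.97% of all 16927 genes called higher. Krt19 (2.62), Lrrn4 (2.46) and Bnc1 (2.38) had edgeR adjusted p values of 0.0513, 0.0530 and 0.0668. Slpi differed by -0.28 (SE 0.77, edgeR adjusted p = 0.834), with an approximate 95% interval from -1.79 to 1.23. For 8 of the 10 genes, all but Slpi and Upk3b, every HFD PCN library was above every HFD library, as for 17.9% of all genes. The number called depended on single libraries, among the 10 and among all genes. Without HFD PCN 27, HFD 4, HFD 30 or HFD 38 it was 0 of the 10, beside 4, 0, 1 and 0 of all genes. Without HFD PCN 5 it was 5, beside 5167 of all 16688 genes tested. With all 12 libraries in one fit 0 of the 10 and 0 of all genes were called. DESeq2 called 6 of the 10 and 2411 of all genes, and limma-voom 1 and 508.

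**Figure D2:**
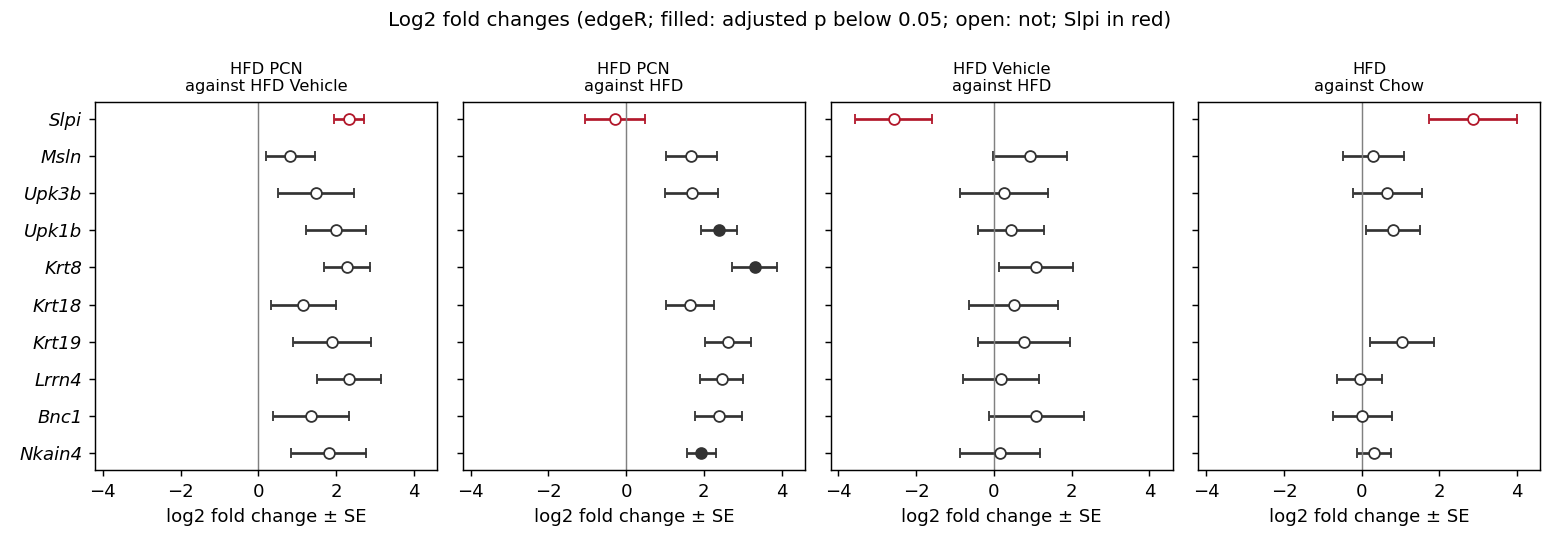
Log2 fold change ± SE (horizontal axes) of the genes in 4 comparisons fitted with edgeR (8 in HFD against Chow, where Krt8 and Krt18 were not tested, and 10 in the others), with filled points for an adjusted p below 0.05 and Slpi in red. Slpi lies below 0 in HFD Vehicle against HFD (-2.58) and in HFD PCN against HFD (-0.28), where the other 9 genes lie above 0.

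The plot of fold changes shows Slpi on one side of zero and the 9 markers on the other in both comparisons with the uninjected HFD libraries. This split rested on single libraries and the test used. Without HFD Vehicle 50, 8 of the 9 markers were below 0 with Slpi in HFD Vehicle against HFD. In HFD PCN against HFD, Slpi had 0.35 by limma-voom and up to 0.90 with a single library left out. Within each library, Slpi was also set against the other 9 genes. Per 100 counts of the 9, Slpi had 9.56, 12.1 and 25.2 counts in HFD PCN 5, 11 and 27. It had 10.6, 5.58 and 23.3 counts in HFD Vehicle 23, 50 and 55. In HFD 4, 30 and 38 it had 105.5, 40.8 and 42.2, and in Chow 8, 17 and 19 it had 19.3, 4.58 and 0. The 3 HFD libraries were above the other 9, and HFD PCN and HFD Vehicle overlapped. As a share of the counts of all 10 genes, Slpi took 29.0% to 51.3% in HFD. The exact 95% binomial interval was 18.9% to 42.4% in HFD 38, the HFD library with the fewest counts. It reached up to 26.2% in HFD Vehicle 55, 22.8% in HFD PCN 27 and 20.85% in Chow 8. So HFD 38 overlaps libraries of every other group in counting error. With 3 libraries a group an exact two-sided permutation test cannot go below 0.1, and none was run. Macrophage marker sums were 6919, 6169 and 6472 CPM in HFD 4, 30 and 38, against 1182, 662.6 and 405.4 CPM in Chow 8, 17 and 19. They were 5475, 2406 and 5350 CPM in HFD PCN 5, 11 and 27 and 5096, 747.5 and 5731 CPM in HFD Vehicle 23, 50 and 55. Neutrophil markers summed to 20.1, 19.2 and 16.5 CPM in HFD 4, 30 and 38 and to between 7.53 and 27.0 CPM over all libraries. Their part in the Slpi ratio was not tested.

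**Figure D3:**
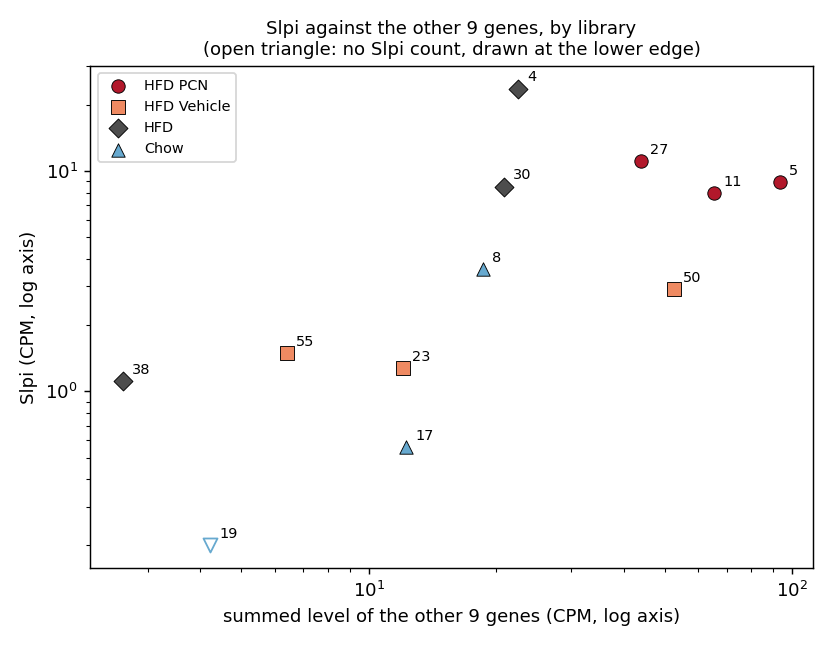
Slpi (vertical axis, CPM, log scale) against the summed level of the other 9 genes (horizontal axis, CPM, log scale) in each of the 12 libraries, with a symbol per group and an open triangle at the lower edge for Chow 19, which had no Slpi count. HFD 4 has 23.7 CPM of Slpi at 22.5 CPM of the 9 genes, while HFD Vehicle 50 has 2.93 CPM at 52.5 CPM.

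**Figure D4:**
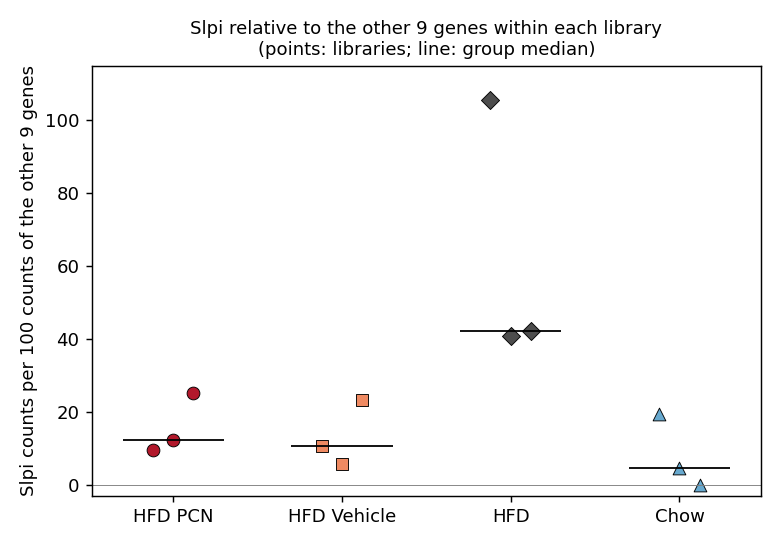
Slpi counts per 100 counts of the other 9 genes (vertical axis, linear) in each library of HFD PCN, HFD Vehicle, HFD and Chow, with the group median as a line. The HFD libraries lie at 40.8, 42.2 and 105.5, above all others, and the ranges of HFD PCN and HFD Vehicle overlap.

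The scatter of Slpi against the 9 genes and the plot of the ratio show the same separation of HFD in point values. It appears once as levels and once as a quotient. Among the counts of the 9 markers, Msln took a median of 23.8% over the 12 libraries, Upk3b 24.6% and Lrrn4 16.5%. Extreme shares came from libraries with few counts, such as Msln at 55.0% of 120 counts in HFD Vehicle 55 and Lrrn4 at 40.5% and Upk3b at 2.70% of 37 counts in Chow 19.

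Agreement between the genes was measured on log2 CPM (prior count 2) minus the group mean, which removes the differences between group means. Over 12 libraries the median Pearson r of the 45 pairs was 0.83, from 0.34 (Slpi with Nkain4) to 0.96 (Msln with Krt18, and Krt19 with Lrrn4). The 45 pairs share the same libraries and depths. Bnc1 and Krt8 followed the mean of the other 9 genes most closely (r = 0.94 each), and Slpi and Nkain4 least (r = 0.76 each), with Spearman's rho of 0.85 for Slpi and 0.81 for Nkain4. Without HFD Vehicle 50 the median over pairs was 0.79, and within the 9 libraries on the high-fat diet 0.89. The libraries farthest from the median were HFD Vehicle 50 (a mean centred level of 1.62 on the log2 scale) and HFD 38 (-1.75). With both left out the median was 0.64, from -0.03 to 0.97, so part of the agreement rests on those 2 libraries. Slpi kept r = 0.74 with the mean of the others there, while Nkain4 had 0.44.

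**Figure D5:**
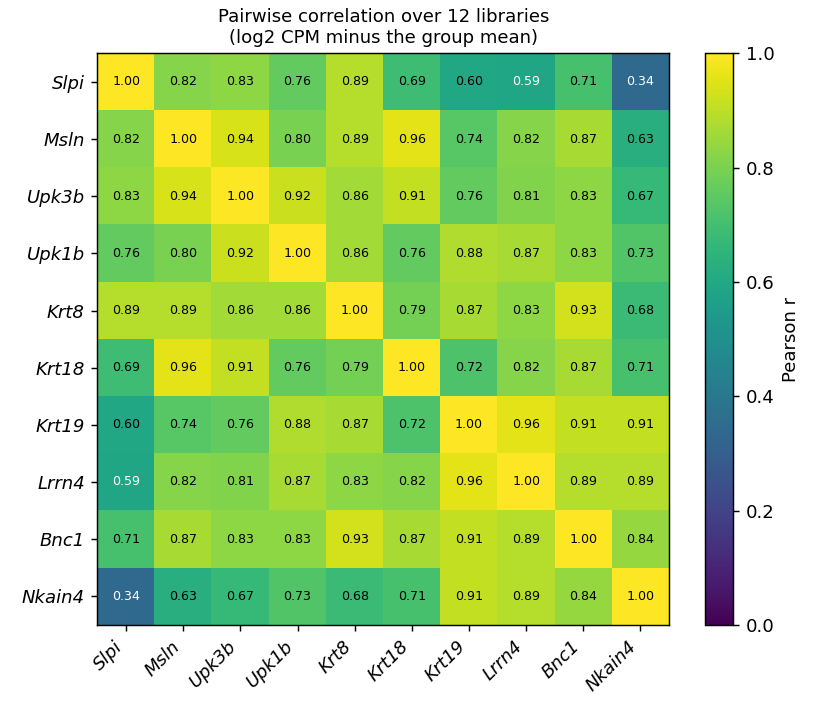
Pearson r between each pair of the 10 genes over 12 libraries, on log2 CPM minus the group mean (colour and printed value; both axes list the genes). The uroplakin, keratin and Msln cells lie mostly above 0.7, and the lowest values are in the Slpi row, down to 0.34 with Nkain4.

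The map of pairwise correlations shows r of 0.91 to 0.96 among Msln, Upk3b and Krt18. Among Krt19, Lrrn4, Bnc1 and Nkain4 it shows 0.84 to 0.96. These sets were not distinct. Bnc1 had 0.87 with Msln and with Krt18 and 0.84 with Nkain4, and Upk1b had 0.92 with Upk3b and 0.88 with Krt19. Krt8 had r of 0.79 to 0.89 with Msln, Upk3b and Krt18 and 0.68 to 0.93 with Krt19, Lrrn4, Bnc1 and Nkain4. Among 12943 genes with a mean of at least 1 CPM, predicted genes and the 10 left out, the 12 nearest to the mean of the 10 were Mirt1 (r = 0.973), Car11 (0.941), Pkhd1l1 (0.941), Ston2 (0.937), Tmem151a (0.922), Alox15 (0.922), Pcnx2 (0.918), H2-DMb2 (0.914), Il17re (0.913), Fras1 (0.907), Wnt2b (0.904) and Papln (0.902), each over 12 libraries. Without HFD Vehicle 50 they had r of 0.871 to 0.961. Without group centring Pkhd1l1 had 0.967 and Tmem151a 0.962, while Papln had -0.007, Il17re 0.403, Alox15 0.405 and H2-DMb2 0.42. The median r over all genes compared was -0.057, and the 99th percentile 0.736. Pkhd1l1 was the most abundant of the 12, at 2.45 to 96.7 CPM with a median of 15.04 CPM. Car11 (0.759 to 2.47 CPM) and Mirt1 (0.467 to 2.19 CPM) were low.

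Of 21 further mesothelial genes, 20 were listed in both tables, and some had likeness close to that of the 10. Muc16, the mucin partner of mesothelin, stood at rank 15 of the 12943 (r = 0.89), Krt7 at rank 20 (0.86), Gpm6a at rank 22 (0.86) and Rspo1 at rank 30 (0.84). Wt1, the transcription factor of the developing and adult mesothelium, had r = 0.64. Aldh1a2 (0.20) and Pdpn (-0.26) were lower. Without HFD Vehicle 50 and HFD 38 this order changed. Muc16 had 0.83 and Krt7 0.69, but Gpm6a had 0.56, Rspo1 0.40 and Wt1 0.28, against 0.57 for Aldh1a2 and 0.51 for Pdpn. Efemp1, at 0.43 over 12 libraries, was then the highest of this list at 0.85. Bcam and Gata6 fell to -0.46 and -0.36, from 0.52 and 0.41 over 12 libraries. Between HFD and Chow 4 of 16 tested were called higher by edgeR, Pdpn (2.79), Ezr (1.52), Igfbp6 (1.35) and Aldh1a2 (1.15, all log2 fold changes). Another 3 were called lower, Bcam (-1.73), Gata6 (-1.40) and Cldn15 (-0.92). Of all genes, 29.8% were called higher and 30.0% lower. Between HFD PCN and HFD Vehicle 0 of 18 were called by edgeR, with a median log2 fold change of 0.62 and 15 above 0, beside 50.0% of all genes, and without HFD Vehicle 50 the median was 0.91 with 17 above 0 and 0 called. Dmkn (2.57) and Gpm6a (2.63) had the largest values. Between HFD Vehicle and HFD 0 of 18 were called by edgeR. Between HFD PCN and HFD 2 of 19 were called higher, beside 2.97% of all genes. These were Bcam (1.34, edgeR adjusted p = 0.0204) and Gata6 (1.27, edgeR adjusted p = 0.0311). HFD Vehicle against HFD gave similar values, 1.44 for Bcam and 1.31 for Gata6, not called. HFD PCN against HFD Vehicle gave -0.07 and -0.01. Both genes were highest of the 12 libraries in HFD Vehicle 50 (72.1 and 29.6 CPM).

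A list of 12 genes held relatives of Slpi with the same WAP fold and proteases of neutrophil granules, of which 10 were listed in both tables. Wfdc17 (up to 66.8 CPM) and Wfdc21 (up to 30.5 CPM) were the most abundant. Between HFD and Chow 3 were tested by edgeR. Wfdc17 was higher (2.94), Prtn3, which encodes proteinase 3, was lower (-3.0), and Wfdc21 was not called (0.41, all log2 fold changes). Between HFD PCN and HFD 5 were tested, and Prtn3 was called higher (2.53, edgeR adjusted p = 0.0271), beside 2.97% of all genes. Ctsg, the cathepsin G that Slpi inhibits, was called lower there (-1.97, edgeR adjusted p = 0.0366), beside 1.35% of all genes, at 0.200 CPM in HFD PCN and 0.781 CPM in HFD. The edgeR test called 0 of 4 between HFD PCN and HFD Vehicle and 0 of 5 between HFD Vehicle and HFD. The uncalled values of HFD Vehicle against HFD were similar, 2.42 for Prtn3 and -2.07 for Ctsg (0.152 CPM in HFD Vehicle). HFD PCN against HFD Vehicle gave 0.13 for Prtn3. Elane, the neutrophil elastase that Slpi inhibits, reached at most 0.549 CPM. The lymphatic markers Lyve1, Prox1 and Ccl21a summed to 42.7, 61.4 and 100.7 CPM in HFD PCN 5, 11 and 27. No other library was above 41.75 CPM (Chow 8). Between HFD PCN and HFD, Lyve1 was called higher (1.83, edgeR adjusted p = 0.0304), beside 2.97% of all genes. Prox1 (0.26) and Ccl21a (-1.5) were not called there. Between HFD PCN and HFD Vehicle, Lyve1 had 1.70, Prox1 -0.75 and Ccl21a -0.55, and edgeR called none of them. Markers of lining epithelia, some of which also carry keratins and uroplakins, were low. The 7 general epithelial genes summed to 0.213 to 1.79 CPM per library, the intestinal genes (5 of 8 listed in both tables) to 0.468 to 3.66 CPM, the epididymal genes (3 of 8) to at most 0.491 CPM and the 1 of 5 pancreatic genes so listed, Cpa1, to at most 0.149 CPM. The urothelial genes Upk1a and Trp63, the 2 of 6 listed in both tables, summed to 0.504 to 4.48 CPM. HFD Vehicle 50 and Chow 17 had the highest urothelial sums (4.48 and 4.16 CPM), and Upk1a alone reached 4.02 CPM in HFD Vehicle 50. In HFD PCN 5, 11 and 27 the urothelial sum was 0.504, 0.951 and 1.23 CPM, while the 10 genes summed to 102.4, 73.3 and 55.1 CPM. In HFD Vehicle 23, 50 and 55 it was 0.582, 4.48 and 1.76 CPM, beside 13.35, 55.4 and 7.89 CPM. The general epithelial sum was 1.765, 0.581 and 1.79 CPM in those HFD PCN libraries. It was 0.388, 1.19 and 0.213 CPM in those HFD Vehicle libraries. Its order of libraries was that of the 10 genes in HFD Vehicle, HFD and Chow, from 2 to 15 counts per library. HFD 4 and 30 had 13 counts each, so their order came from the scaling alone. Over all libraries it had at most 49 counts (HFD PCN 5). The part of lining epithelia in these levels was not tested.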

How the data were processed

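RNA was sequenced from 12 libraries, and the genes and lists were chosen with earlier results of these data known. In each of the 2 tables deposited by the authors, a gene has a whole-number read count in each of 6 libraries. The submitters' processing notes name HISAT2, HTSeq and DESeq2 and the build GRCm38 (mm10). Fold changes and p-values in the same deposited tables are the authors' own. No per-sample column was left unmatched.

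Levels are CPM, TMM-scaled over the 28008 genes in both tables, and RPKM uses the union of annotated exons. Of 32772 gene IDs, 99.96% matched the reference annotation. Comparisons were tested in R 4.3.3 with edgeR 4.0.16 (quasi-likelihood, TMM, default expression filter, Benjamini-Hochberg over all genes), tried on simulated data. Alternatives were DESeq2 1.42.0, limma-voom (limma 3.58.1), other scalings and filters (including 1 CPM in at least 3 libraries), one fit of all 12 libraries, and leaving out each library. Named were the 10 genes, the 12 nearest genes and the called members of the mesothelial and WAP lists. Some uncalled members of those lists were named for their level, likeness or fold change. Lists of other cell types are given as sums or by single genes, and the adipose progenitor and smooth muscle lists are not described. Groups come from the sample labels.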

Additional observations from a re-analysis of the deposited data

How the results depend on the processing

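No paired analysis was possible because each library number occurs in 1 group only. Of the 10 genes, the number called between HFD and Chow was 0, beside 9699 of all genes. It was 1 (Slpi) with no filter on low counts (10549 of all genes) or with all 12 libraries in one fit (8215). With single libraries left out it was 0 to 1 (7953 to 10889 of all genes). Between HFD PCN and HFD Vehicle it was 0 by edgeR (0 of all genes), 1 by DESeq2 (1) and 1 by the authors' deposited adjusted p (2). DESeq2 without HFD Vehicle 50, added after the data were seen, called 9 of the 10 and 44 of all genes. With single libraries left out edgeR called 0 to 0 of the 10, as between HFD Vehicle and HFD. Between HFD PCN and HFD the number of the 10 called was 3, beside 732 of all genes. It was 6 by DESeq2 (2411 of all genes), 1 by limma-voom (508) and 6 with no filter (1296). With all 12 libraries in one fit it was 0 (0 of all genes). With single libraries left out it was 0 to 5 (0 to 5167 of all genes). The median correlation between pairs was 0.83, 0.78 to 0.87 with single libraries left out, and 0.64 without the 2 farthest. Some log2 fold changes changed sign. Between HFD and Chow these were Bnc1 by limma-voom (-0.44) and Lrrn4 with no filter (0.03), and leaving out single libraries gave -0.57 to 0.73 for Bnc1, -0.09 to 0.82 for Msln and -0.50 to 0.40 for Lrrn4. Between HFD Vehicle and HFD, limma-voom gave -0.36 for Upk3b, -0.01 for Upk1b, -0.24 for Lrrn4 and -0.81 for Nkain4. There, leaving out single libraries gave -0.13 to 1.34 for Msln, -1.57 to 0.77 for Upk3b, -0.38 to 0.94 for Upk1b, -1.06 to 1.01 for Krt18, -0.78 to 1.35 for Krt19, -0.93 to 0.70 for Lrrn4, -1.03 to 1.71 for Bnc1 and -1.66 to 0.72 for Nkain4. Between HFD PCN and HFD, Slpi had 0.35 by limma-voom and -0.80 to 0.90 with single libraries left out. The cause was not tested. With 3 libraries a group and each of the 10 genes at under 20 counts in at least 1 library, depth limits all of them, and Krt8 and Krt18 most.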
